A study of Mus musculus with 9 samples.

Results

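Axin2, Nkd1, Nkd2, Apcdd1, Notum, Rnf43, Znrf3, Sp5, Lef1 and Tcf7 are 10 genes widely used as readouts of canonical Wnt signaling in the mouse, and the products of most of them act back on the pathway. They were taken by name from a list, with no threshold on their values, though with earlier results of these data known, and each was found once among the 43548 gene identifiers of the expression table. All 10 passed the filter on low values, a mean of at least 0.5 FPKM over the libraries. FPKM is a read level corrected for the length of the transcript and the size of the library, so that levels of different genes can be set beside each other.

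In canonical Wnt signaling, a secreted Wnt ligand binds a Frizzled receptor and an Lrp co-receptor, the complex that degrades β-catenin is held back, and β-catenin enters the nucleus to act with transcription factors of the Tcf/Lef family. Among the genes switched on are several whose products restrain the pathway: Axin2 is a scaffold of the degradation complex, Nkd1 and Nkd2 are inhibitors that bind Dishevelled, Apcdd1 is a membrane protein that binds Wnts and Lrp5, Notum is a secreted enzyme that removes the lipid from Wnts, and Rnf43 and Znrf3 are ubiquitin ligases that clear Frizzled from the cell surface. Sp5 is a zinc finger transcription factor that responds to β-catenin, and Lef1 and Tcf7 encode members of the Tcf/Lef family itself. In the developing skull, the level of β-catenin in mesenchyme bears on whether cells form bone or cartilage.

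RNAseq was carried out at E14.5 on 3 tissues: the cranial vault of MCAGF8 embryos, the control cranial vault and the cartilaginous control cranial base, with 3 libraries each. MCAGF8 embryos carry Msx2-Cre, a transgene active in surface ectoderm, and CAGF8, a ROSA26 allele from which the strong CAG promoter drives Fgf8b after Cre removes a stop cassette. Controls, labelled wildtype, had no Cre, and since the CAGF8 parents were homozygous the methods give every embryo of such a cross a CAGF8 allele, silent in the controls. The strain label of all embryos is mixed, and the CAGF8 colony was kept on an outbred Black Swiss background. The skin was peeled off before vault tissue was collected. For each library, RNA of 3 of the 9 tissue samples in a group was pooled, so the SD between libraries is a spread between pools, and the spread between embryos cannot be seen. Both control tissues were collected from control embryos, and which vault and base pools hold tissue of the same embryos is not stated. In whole tissue, a lower level can mean fewer cells of a type or less RNA per cell, and the 2 cannot be told apart.

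Fgf8 itself was at 13.5, 8.25 and 3.01 FPKM in control vault replicates 1 to 3, at 19.5, 9.43 and 13.0 FPKM in the MCAGF8 vault and at 3.78, 17.4 and 5.82 FPKM in the control base, so its level did not separate the labels. The tissue makeup of the groups differed. Markers of osteoblasts and bone summed to 4046 to 7308 FPKM in the control vault, 2245 to 2959 FPKM in the MCAGF8 vault and 999 to 2415 FPKM in the base. Cartilage markers summed to 2323 to 3343 FPKM, 3136 to 5771 FPKM and 1109 to 11308 FPKM in the same order, and in the base replicate 2 alone was at 11308 FPKM. Markers of skin epidermis summed to 71.8, 149 and 44.6 FPKM in the control vault, 524, 493 and 1286 FPKM in the MCAGF8 vault and 707, 160 and 958 FPKM in the base. Skeletal muscle markers ran from 877 to 5662 FPKM in the control vault, 21.3 to 182 FPKM in the MCAGF8 vault and 1669 to 11283 FPKM in the base. No marker in these 4 lists was at 0 in every library.

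**Figure D1:**
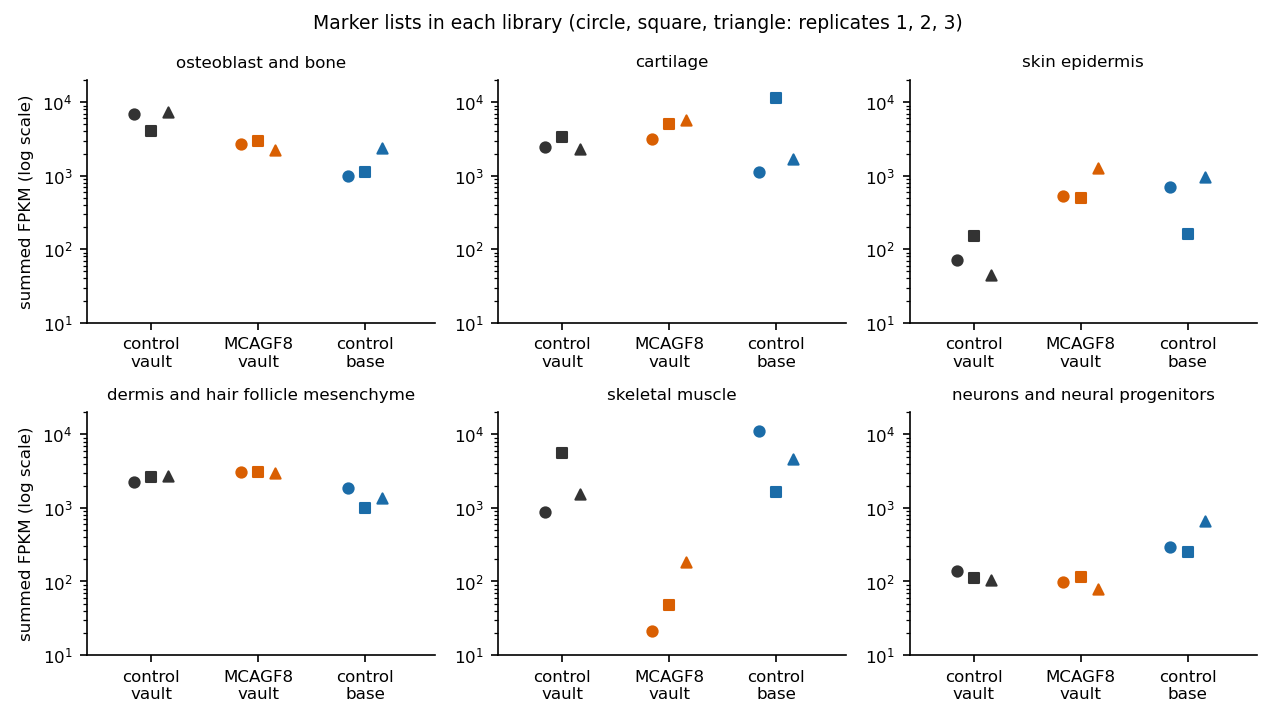
Summed FPKM of the markers of 6 tissues in each library, on a log scale, with 1 point per library (circle, square and triangle for replicates 1, 2 and 3). Epidermal sums in the MCAGF8 vault (493 to 1286) lie above those of the control vault (44.6 to 149), muscle sums lie below, and base replicate 2 has the highest cartilage sum, 11308.

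Positions of the members are those of the GENCODE M21 annotation of the GRCm38 genome, in which all are protein coding. The deposited values name no build, and these positions come from the reference alone. Axin2 (ENSMUSG00000000142) is at chr11:108920349-108950783, Tcf7 (ENSMUSG00000000782) at chr11:52252371-52283014, Notum (ENSMUSG00000042988) at chr11:120653788-120661175, Rnf43 (ENSMUSG00000034177) at chr11:87662722-87735539 and Znrf3 (ENSMUSG00000041961) at chr11:5276324-5444847. Lef1 (ENSMUSG00000027985) is at chr3:131110471-131224356, Nkd1 (ENSMUSG00000031661) at chr8:88521354-88594884, Nkd2 (ENSMUSG00000021567) at chr13:73818534-73847631 and Sp5 (ENSMUSG00000075304) at chr2:70474923-70477729. Apcdd1 has the identifier ENSMUSG00000071847. Axin2, Lef1, Tcf7, Nkd2, Notum and Rnf43 overlap noncoding genes or pseudogenes on the opposite strand. On the same strand, Gm42449 overlaps Lef1, Gm26551 overlaps Tcf7, Gm45496 overlaps Nkd1 and 1110028F11Rik overlaps Rnf43. 1110028F11Rik was at 0 to 0.559 FPKM, where Rnf43 was at 1.59 to 2.10 FPKM in the control vault. All overlapping genes with a level were under 1 FPKM in every library. No level is given here for Gm43352, Gm42449 or Gm45496. Whether reads were assigned by strand is not given in the sources.

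Promoter sequence was read for the members with a window whose mean levels in the vaults had the largest ratios in either direction: Sp5 and Lef1, which were higher in the MCAGF8 vault, and Tcf7, which was lower. RefSeq windows (GRCm38.p6) of 300 bases, 250 before to 50 after a transcription start, were at hand for 7 of the 10 members, 12 windows in all, and were searched on both strands for CTTTGAT and CTTTGAA, forms of the Tcf/Lef binding sequence that differ in their last letter. The Sp5 window is at chr2:70474673-70474972 on the plus strand, the Lef1 window shown (1 of 4) at chr3:131110047-131110346 on the plus strand, and the Tcf7 window shown (1 of 2) at chr11:52282965-52283264 on the minus strand. Sequences run 5′ to 3′ along the gene, and capitals mark CTTTGAT.
Sp5: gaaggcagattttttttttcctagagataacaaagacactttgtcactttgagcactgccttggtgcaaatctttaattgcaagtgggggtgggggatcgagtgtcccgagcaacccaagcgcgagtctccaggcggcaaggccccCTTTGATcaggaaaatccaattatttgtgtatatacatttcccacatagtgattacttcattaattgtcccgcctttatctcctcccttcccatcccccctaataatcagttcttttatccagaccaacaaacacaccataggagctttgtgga
Lef1: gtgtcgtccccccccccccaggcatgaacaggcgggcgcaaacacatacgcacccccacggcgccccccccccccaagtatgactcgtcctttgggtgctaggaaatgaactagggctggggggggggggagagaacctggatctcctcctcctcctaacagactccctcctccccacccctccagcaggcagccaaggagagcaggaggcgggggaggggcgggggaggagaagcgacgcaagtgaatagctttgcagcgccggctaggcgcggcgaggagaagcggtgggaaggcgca
Tcf7: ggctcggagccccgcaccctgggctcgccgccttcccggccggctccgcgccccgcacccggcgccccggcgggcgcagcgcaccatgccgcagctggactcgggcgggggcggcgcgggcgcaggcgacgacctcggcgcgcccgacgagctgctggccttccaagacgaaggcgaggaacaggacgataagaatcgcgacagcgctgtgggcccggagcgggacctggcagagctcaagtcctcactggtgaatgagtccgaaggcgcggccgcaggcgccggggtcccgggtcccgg
CTTTGAT was present once, in the Sp5 window, with its first base 104 bases before the start and on the strand of the gene. It was not found in the other 11 member windows, and CTTTGAA was found in none of the 12. Of all 32851 RefSeq windows, 3.73% held CTTTGAT, 5.14% held CTTTGAA and 8.65% held either. A match is a run of letters and not a measured binding site. The windows follow annotated starts, and which starts these tissues use was not measured. The Tcf7 window shown runs from an atg to its end with no stop codon in frame. Much of it may thus be coding sequence, and the missing match there may say nothing about a promoter.

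The first question was whether these genes differed between the MCAGF8 vault and the control vault. Of the 10 members, 9 had a higher mean in the MCAGF8 vault and 1, Tcf7, a lower one. The libraries of both groups did not overlap for 8 members, 7 of them higher and 1 lower, while 19.2% of all 18714 genes tested had groups that did not overlap. Using limma on log2(FPKM + 1), 8 members had an unadjusted p under 0.05 (7 higher), against 6.34% of all genes. Calls required both an unadjusted p below 0.05 and, after Benjamini-Hochberg adjustment over all genes, a p below 0.1. By that rule Apcdd1 and Sp5 were called, both higher, where 0.604% of all genes were called. The median log2 difference over the members was 0.95, and that over all genes was -0.01. The count of called members depended on the libraries: it was 0 without any 1 library of the control vault or of the MCAGF8 vault and 0 without base replicate 1, but 2 without base replicate 3 and 5 without base replicate 2 (Apcdd1, Axin2, Lef1, Sp5 and Tcf7), whose only part in this comparison is in the estimate of the spread. Calls over all 18714 genes, 113 with every library, numbered 11 to 111 without 1 vault library and 231 without base replicate 2.

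**Figure D2:**
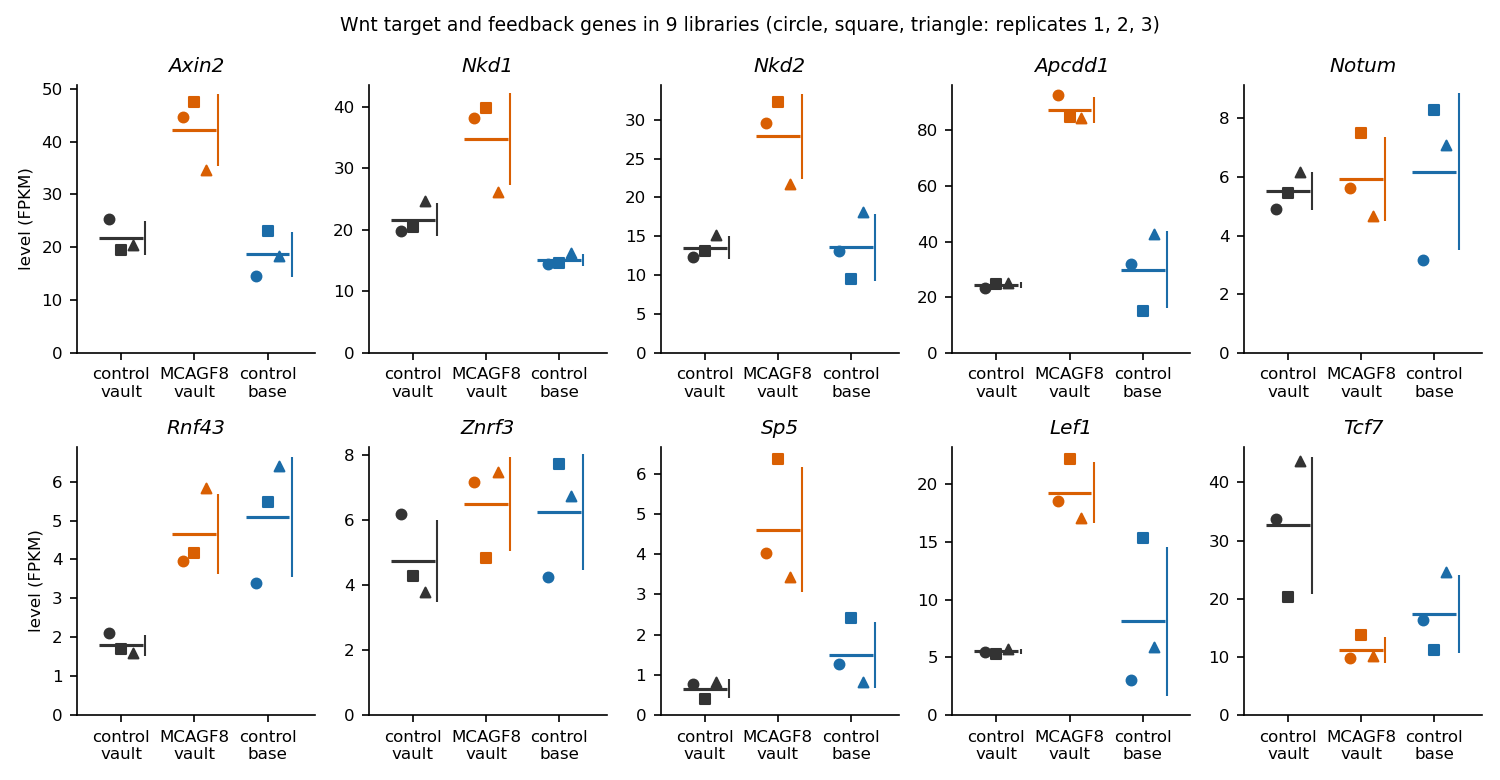
FPKM of each of the 10 members in the 9 libraries, with 1 point per library, a horizontal bar at the group mean and a vertical line for the mean ± SD (n = 3). Each axis starts at 0. Axin2, Nkd1, Nkd2, Apcdd1, Rnf43, Sp5 and Lef1 lie higher in every MCAGF8 library than in every control vault library, Tcf7 lies lower, and Notum and Znrf3 overlap.

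Apcdd1 had the highest level of the set in the MCAGF8 vault. It was at 23.1, 24.7 and 25.3 FPKM in control vault replicates 1 to 3 and at 92.6, 84.7 and 84.4 FPKM in the MCAGF8 vault. The highest library exceeded the lowest by 1.09-fold within the control vault and by 1.10-fold within the MCAGF8 vault, while the means differed by 3.58-fold. The log2 difference was 1.80 (SE 0.31, limma adjusted p = 0.0723). It ranged from 1.76 to 1.82 when 1 library was left out, with an adjusted p of 0.0090 to 0.358.

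Sp5 was the member with the lowest mean in every group and the largest ratio between the vaults. In the MCAGF8 vault its mean of 4.61 FPKM was close to that of Rnf43 (4.65 FPKM), and the libraries of these genes overlapped. Sp5 was at 0.769, 0.395 and 0.812 FPKM in the control vault and at 4.02, 6.37 and 3.44 FPKM in the MCAGF8 vault. Every MCAGF8 library was above every control vault library, and the means differed by 7.00-fold. On the log2(FPKM + 1) scale, which understates changes at low levels, the difference was 1.73 (SE 0.30, limma adjusted p = 0.0723). With a pseudocount of 0.1 it was 2.64. Leaving out 1 library gave 1.52 to 1.89, with an adjusted p of 0.0308 to 0.284.

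Axin2 and the Naked genes had higher means in the MCAGF8 vault, by 1.94-fold for Axin2 and 2.06-fold for Nkd2 and by less for Nkd1. Axin2 was at 25.4, 19.4 and 20.4 FPKM in the control vault, 21.7 ± 3.20 (SD, n = 3), and at 44.7, 47.5 and 34.5 FPKM in the MCAGF8 vault, 42.3 ± 6.83. The groups did not overlap, and the log2 difference was 0.92 (SE 0.22, limma adjusted p = 0.181). Nkd1 was at 19.8, 20.5 and 24.7 FPKM in the control vault and at 38.3, 39.9 and 26.1 FPKM in the MCAGF8 vault. The lowest MCAGF8 library, replicate 3, lay close to the highest control, and the log2 difference was 0.64 (SE 0.20, limma adjusted p = 0.408). Nkd2 was at 12.3, 13.1 and 15.1 FPKM in the control vault and at 29.6, 32.2 and 21.7 FPKM in the MCAGF8 vault, with a log2 difference of 0.98 (SE 0.25, limma adjusted p = 0.238). In Axin2, Nkd1 and Nkd2 alike, replicate 2 was the highest and replicate 3 the lowest MCAGF8 library. None of these 3 genes was called.

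Of the ubiquitin ligases, Rnf43 separated the vaults and its paralog Znrf3 did not. Rnf43 was at 2.10, 1.69 and 1.59 FPKM in the control vault and at 3.96, 4.15 and 5.84 FPKM in the MCAGF8 vault, with means of 1.79 and 4.65 FPKM and a log2 difference of 1.01 (SE 0.26, limma adjusted p = 0.238). Znrf3 was at 6.18, 4.28 and 3.78 FPKM in the control vault and at 7.17, 4.83 and 7.49 FPKM in the MCAGF8 vault. MCAGF8 replicate 2 lay below control replicate 1, and the log2 difference of 0.39 had a 95% interval of -0.24 to 1.01. Notum was at 4.90, 5.46 and 6.18 FPKM in the control vault and at 5.62, 7.50 and 4.67 FPKM in the MCAGF8 vault. Its groups overlapped, and its log2 difference of 0.07 had a 95% interval of -0.64 to 0.78.

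**Figure D3:**
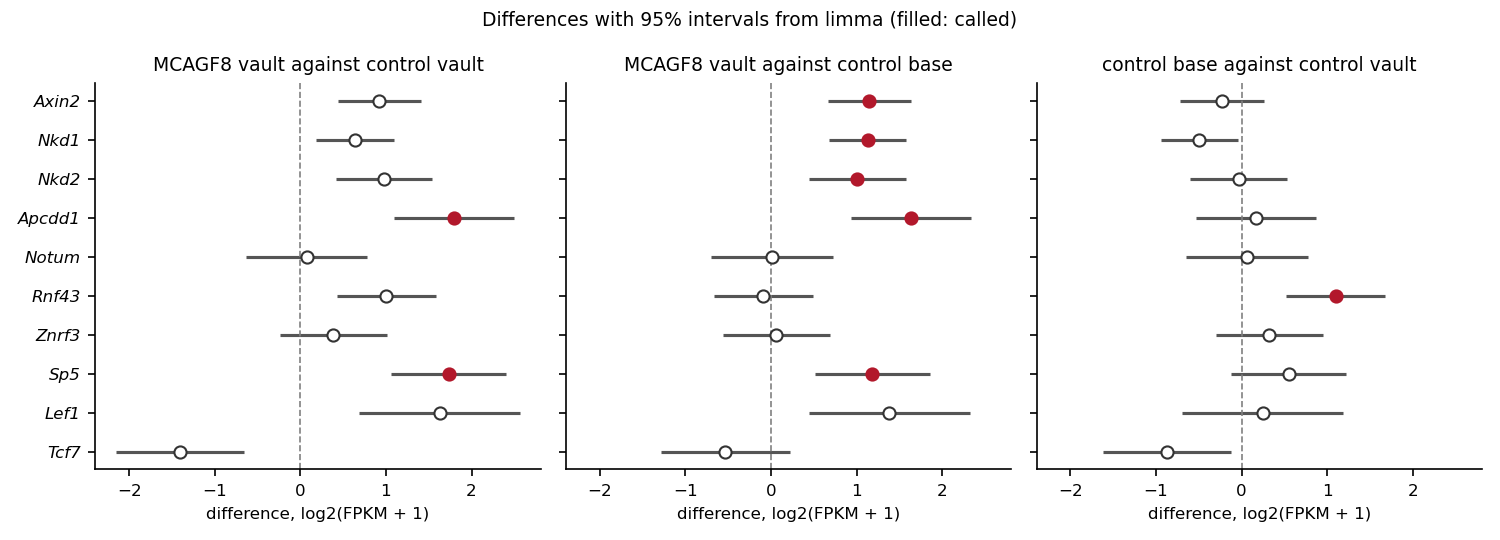
Differences on the log2(FPKM + 1) scale for the 10 members in the 3 comparisons, with 95% intervals from limma; filled points mark calls. Apcdd1 (1.80) and Sp5 (1.73) are called against the control vault, Axin2, Nkd1, Nkd2, Sp5 and Apcdd1 against the base, and Rnf43 (1.10) between the control tissues.

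Lef1 and Tcf7, which encode transcription factors of the same family, differed in opposite directions. Lef1 was at 5.49, 5.31 and 5.73 FPKM in the control vault and at 18.5, 22.2 and 17.1 FPKM in the MCAGF8 vault. The means differed by 3.50-fold, and the log2 difference was 1.63 (SE 0.42, limma adjusted p = 0.238). Tcf7 was at 33.8, 20.3 and 43.7 FPKM in the control vault and at 9.86, 13.8 and 10.1 FPKM in the MCAGF8 vault, where its mean was 2.90-fold lower. Its log2 difference was -1.41 (SE 0.33, limma adjusted p = 0.187). Neither gene was called in the fit over all 9 libraries. In a fit of the 2 vault groups alone Lef1 was called (adjusted p = 0.0336), and without base replicate 2 both were (adjusted p = 0.0294 for Lef1 and 0.0977 for Tcf7). Neither was called without any other library. Leaving out 1 library gave limma adjusted p up to 0.666 for Lef1 and up to 0.654 for Tcf7.

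The family has 2 further members, Tcf7l1, best known as a repressor, and Tcf7l2. The 4 transcripts were added up in each library after the values of Lef1 and Tcf7 had been seen, as a description. Lef1 made up 5.26%, 6.36% and 4.81% of the sum in the control vault and 19.6%, 17.2% and 17.5% in the MCAGF8 vault. Tcf7 made up 32.4%, 24.3% and 36.7% in the control vault and 10.5%, 10.7% and 10.3% in the MCAGF8 vault. The sum itself was 83.5 to 119 FPKM in the control vault and 94.3 to 129 FPKM in the MCAGF8 vault, which overlapped. Tcf7l1 gave the largest share in every library, 46.5% to 51.8% in the control vault and 54.1% to 62.1% in the MCAGF8 vault, and its level differed by 0.32 on the log2 scale with a 95% interval of -0.20 to 0.84. Tcf7l2 differed by -0.12, from -0.56 to 0.33. The ratio of Lef1 to Tcf7 was 0.131 to 0.261 in the control vault and 1.61 to 1.88 in the MCAGF8 vault.

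**Figure D4:**
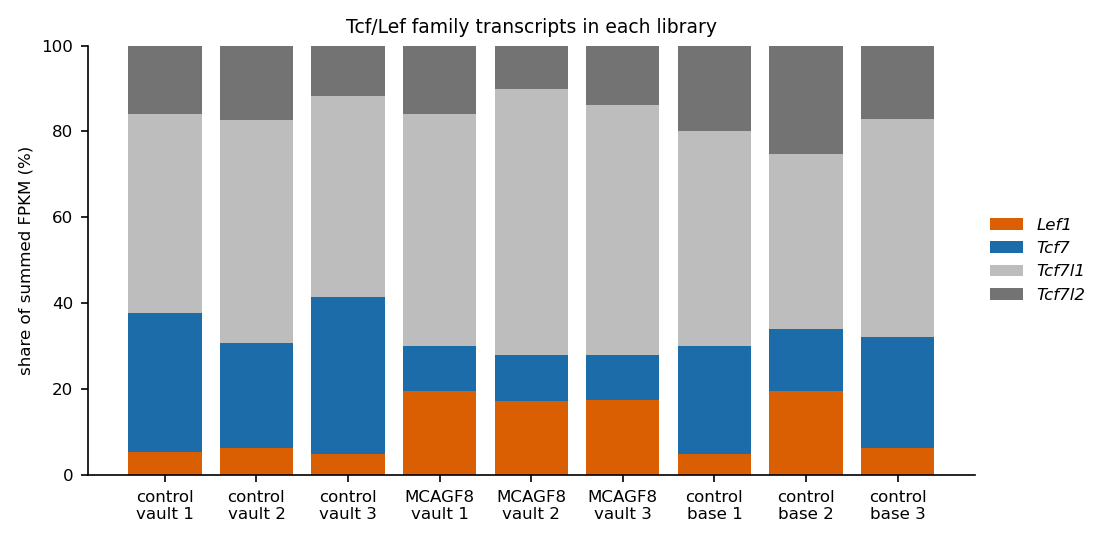
Share of Lef1, Tcf7, Tcf7l1 and Tcf7l2 in their summed FPKM, in percent, with 1 bar per library. Lef1 takes 17.2% to 19.6% in the MCAGF8 vault and 4.81% to 6.36% in the control vault, and base replicate 2, at 19.7%, stands apart from the other base libraries.

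Set in order of level, the control vault began with Tcf7 (32.6 FPKM on average), Apcdd1 (24.4), Axin2 (21.7) and Nkd1 (21.7), whose libraries overlapped, and went on with Nkd2 (13.5), which lay below all of them. Notum (5.52), Lef1 (5.51) and Znrf3 (4.75) overlapped, and Rnf43 (1.79) and Sp5 (0.658) each lay below the genes before them. In the MCAGF8 vault the order was Apcdd1 (87.2 FPKM), Axin2 (42.3), Nkd1 (34.7), Nkd2 (27.8), Lef1 (19.3), Tcf7 (11.3), Znrf3 (6.50), Notum (5.93), Rnf43 (4.65) and Sp5 (4.61). There Apcdd1 lay above every other member, Axin2 overlapped Nkd1, Nkd1 overlapped Nkd2 and Nkd2 overlapped Lef1, Tcf7 lay below Lef1, and the last 4 overlapped. Tcf7 thus stood first of the 10 in the control vault and sixth in the MCAGF8 vault.

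The second question was how the MCAGF8 vault compared with the control base, which the study sampled as normal cartilage. By the cartilage markers only base replicate 2, at 11308 FPKM, was rich in cartilage. Base replicates 1 and 3, at 1109 and 1662 FPKM, lay below every control vault library (2323 to 3343) and every MCAGF8 library (3136 to 5771). The comparison with the base uses the same MCAGF8 libraries as the first and is no independent repeat of it. On the log2(FPKM + 1) scale the difference was above 0 for 8 of the 10 members and below 0 for Tcf7 and Rnf43. For Notum, at 0.01, the mean FPKM itself was lower in the MCAGF8 vault (5.93 against 6.18). The groups did not overlap for 6, all higher, against 21.9% of all genes. Called members numbered 5, all higher, where 8.39% of all genes were called in either direction. The median log2 difference was 1.07, and that of all genes was -0.07.

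Nkd1 was at 14.4, 14.6 and 16.2 FPKM in the base, a narrow range, and its difference of 1.13 had the lowest adjusted p of the set (SE 0.20, limma adjusted p = 0.0141). Axin2 was at 14.52, 23.0 and 18.3 FPKM in the base, a log2 difference of 1.15 (SE 0.22, limma adjusted p = 0.0178). Apcdd1 was at 31.9, 15.0 and 42.8 FPKM in the base, a difference of 1.63 (SE 0.31, limma adjusted p = 0.0185). These 3 genes remained called without any 1 of the 9 libraries, with adjusted p of at most 0.0967. Nkd2 was at 13.1, 9.49 and 18.1 FPKM in the base (log2 difference 1.01, limma adjusted p = 0.0527), and Sp5 at 1.27, 2.40 and 0.813 FPKM (1.18, adjusted p = 0.0554). Nkd2 and Sp5 lost their calls without MCAGF8 replicate 1 (adjusted p = 0.205 and 0.151), MCAGF8 replicate 2 (0.170 and 0.174) or base replicate 1 (0.104 and 0.122), and Sp5 also without base replicate 3 (0.141). Without base replicate 2, 6 members were called, and calls over all genes went from 1571 to 4580 of 18714.

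Lef1 was at 3.08, 15.3 and 5.91 FPKM in the base. Every MCAGF8 library was higher, but base replicate 2 came close to the lowest of them, and the log2 difference of 1.38 was not called (SE 0.42, limma adjusted p = 0.101). Without base replicate 2 the difference was 1.93 with an adjusted p of 0.00416. Tcf7 was at 16.3, 11.2 and 24.6 FPKM in the base, which overlapped the MCAGF8 vault (log2 difference -0.53, limma adjusted p = 0.422). Rnf43 was at 3.40, 5.48 and 6.41 FPKM in the base, Znrf3 at 4.26, 7.72 and 6.76 FPKM and Notum at 3.16, 8.29 and 7.10 FPKM. All 3 overlapped the MCAGF8 vault, and the 95% intervals of their log2 differences were -0.67 to 0.49, -0.56 to 0.69 and -0.70 to 0.72.

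The third comparison, of the control base with the control vault, asked how the members differ between normal tissues, and its libraries are the controls of the first and second comparisons. On the log2(FPKM + 1) scale the base was higher for 6 members and lower for 4, of which Nkd2, at -0.03, had nearly equal mean FPKM (13.6 in the base and 13.5 in the control vault). The groups did not overlap for Rnf43 and Sp5, both higher in the base, and Nkd1, lower in the base, where 15.5% of all genes had groups that did not overlap. Rnf43 was the only member called, 2.84-fold higher on average in the base, against 3.06% of all genes called. Its log2 difference was 1.10 (SE 0.26, limma adjusted p = 0.0781). It stayed called without base replicate 1 (adjusted p = 0.0303) or base replicate 2 (0.0948) and was lost without any other library, with adjusted p up to 0.280 without control vault replicate 3. Sp5 differed by 0.55 (adjusted p = 0.531), Nkd1 by -0.49 (adjusted p = 0.326) and Tcf7 by -0.87 (adjusted p = 0.286). Rnf43 thus overlapped between the MCAGF8 vault and the base, and was higher in every library of either than in the control vault.

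The base libraries differed among themselves more than the vault libraries for most members. The highest exceeded the lowest by 4.99-fold for Lef1, 2.95-fold for Sp5, 2.85-fold for Apcdd1 and 2.62-fold for Notum, and by 1.12-fold for Nkd1. Replicate 2, with the highest cartilage sum and the lowest epidermal sum, had the highest Axin2, Lef1, Sp5, Notum and Znrf3 of the base and the lowest Tcf7, Nkd2 and Apcdd1. Whether tissue makeup has a part in these differences was not tested.

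Marker lists of several tissues also differed between the vaults, a comparison in which 0.604% of all genes were called. Of 19 epidermal markers tested, 18 had a higher mean in the MCAGF8 vault than in the control vault, 3 of them called, among them Krt5, a basal keratin, at 5.27, 29.2 and 1.63 FPKM in the control vault and 149, 139 and 252 FPKM in the MCAGF8 vault. Of 13 cartilage markers, 12 were higher and none was called. Of 12 markers of dermis and hair follicle mesenchyme, 8 were higher and none was called, and their sums were 2243 to 2738 FPKM in the control vault and 3020 to 3047 FPKM in the MCAGF8 vault. All 12 bone markers were lower, 7 of them called, with Ibsp, bone sialoprotein, at 679 to 1527 FPKM in the control vault and 11.5 to 50.7 FPKM in the MCAGF8 vault. All 10 muscle markers were lower and 8 were called. These lists and the members were measured in the same RNA, and their part in the members' differences was not tested.

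The members and the marker sums can be set side by side by library, as a description. The base is another tissue, from embryos without Cre, and the part of epidermis or cartilage in the members' levels was not tested. Across control vault libraries, whose epidermal sums ran from 44.6 to 149 FPKM, Lef1 had the narrowest range of the members, 5.31 to 5.73 FPKM (1.08-fold). Tcf7 (2.15-fold) and Sp5 (2.06-fold) had the widest ranges there. Axin2, Lef1, Tcf7 and Sp5 were lowest in control vault replicate 2, which had the highest epidermal sum of the group, and no member was highest in it. Base replicates 1 and 3, with epidermal sums of 707 and 958 FPKM, above those of MCAGF8 replicates 1 and 2, had Axin2 at 14.52 and 18.3 FPKM, Lef1 at 3.08 and 5.91 FPKM, Sp5 at 1.27 and 0.813 FPKM and Apcdd1 at 31.9 and 42.8 FPKM, each below every MCAGF8 library, while Rnf43 in replicate 3, at 6.41 FPKM, was above every MCAGF8 library. Base replicate 2, with a cartilage sum of 11308 FPKM, above every MCAGF8 library, had Axin2 at 23.0 FPKM, Lef1 at 15.3 FPKM, Sp5 at 2.40 FPKM and Apcdd1 at 15.0 FPKM, also below every MCAGF8 library, while Notum, at 8.29 FPKM, and Znrf3, at 7.72 FPKM, were above every MCAGF8 library. Within the MCAGF8 vault, replicate 3 had the highest epidermal sum, 1286 FPKM, and the lowest Axin2, Lef1, Nkd1, Nkd2, Sp5, Notum and Apcdd1 of the group, but the highest Rnf43 and Znrf3.

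The rest of the pathway was described by 6 lists of genes. Of 17 Wnt ligands and secretion genes tested, 13 were higher in the MCAGF8 vault than in the control vault, with a median log2 difference of 0.34. Of the 17, 5 were called, all higher: Wnt3, Wnt4, Wnt7b, Wnt3a and Wnt5a. Over all genes, 0.604% were called in this comparison. Wnt4 was at 1.69 to 2.56 FPKM in the control vault and 8.66 to 10.2 FPKM in the MCAGF8 vault, a log2 difference of 1.74 (SE 0.25, limma adjusted p = 0.0374). Wnt7b, a ligand of canonical signaling made in epithelia, went from 1.58 to 2.33 FPKM in the control vault to 6.96 to 8.35 FPKM in the MCAGF8 vault, a difference of 1.58 (SE 0.21, limma adjusted p = 0.0373). Wnt3 was at 0.0503 to 0.642 FPKM in the control vault and 3.47 to 3.99 FPKM in the MCAGF8 vault, 1.93 on the log2 scale (SE 0.31, limma adjusted p = 0.0566). None of these ligands had groups that overlapped.

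Of 15 Wnt receptors, 8 were higher and 7 lower, with a median of 0.03, and 1 was called, where 0.604% of all genes were. Fzd10, a Frizzled receptor, was the only one called, from 4.39 to 8.28 FPKM in the control vault to 14.8 to 20.6 FPKM in the MCAGF8 vault (log2 difference 1.55, SE 0.30, limma adjusted p = 0.0925). Of 24 genes of the β-catenin core and its transcription complex, 18 were higher and 6 lower, with a median of 0.13 and none called. β-catenin's own transcript, Ctnnb1, differed by -0.12 with a 95% interval of -0.61 to 0.36. Of 13 secreted antagonists and Kremens, 5 were higher and 8 lower with a median of -0.04, and of 6 R-spondins and Lgr receptors, which keep Rnf43 and Znrf3 off Frizzled, 2 were higher and 4 lower with a median of -0.15. Of 12 other genes used as Wnt readouts, 8 were higher and 4 lower with a median of 0.28. No gene of the last 3 lists was called.

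**Figure D5:**
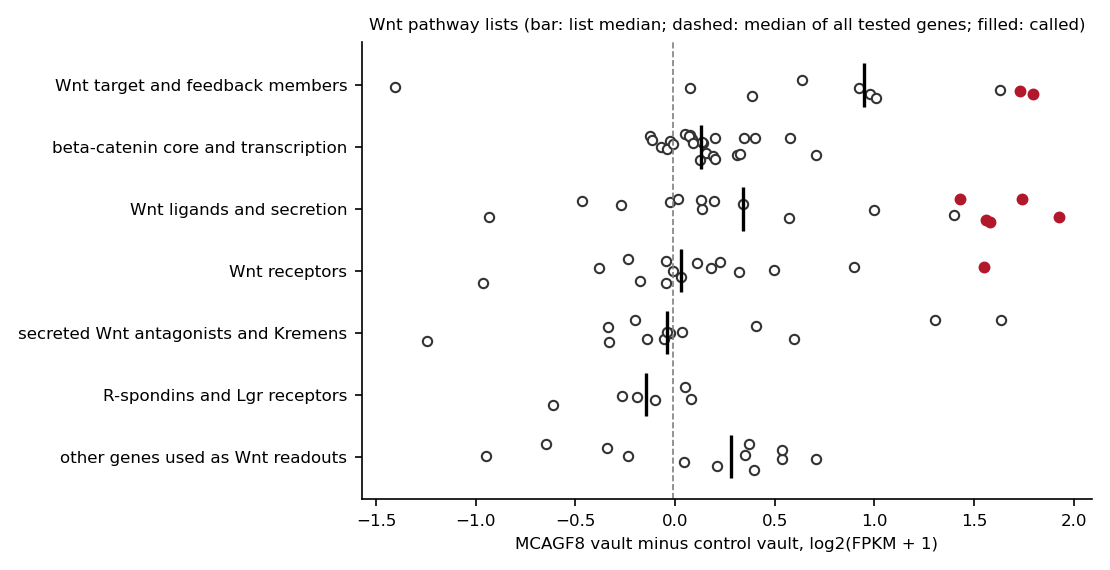
Difference of MCAGF8 vault minus control vault on the log2(FPKM + 1) scale, with 1 point per gene, for the members and 6 other lists of Wnt pathway genes; filled points are called, short bars are list medians and the dashed line is the median of all genes. The member median is 0.95 and those of the other lists run from -0.15 to 0.34.

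Against the base, where 8.39% of all genes were called, 6 of the 17 ligand and secretion genes tested were called, all higher in the MCAGF8 vault. They were led by Wnt3 (log2 difference 1.36, limma adjusted p = 0.0380), Wnt5a (1.34, adjusted p = 0.0114) and Wnt6 (1.16, adjusted p = 0.0182). Of 15 receptors, 2 were called, Fzd10 (1.47) and Ror2 (0.85), a receptor for Wnt5a. Of 13 antagonists and Kremens, 3 were called: Dkk3 (1.24), Wif1 (1.16) and Dkk2 (0.90). Of 12 other readouts, 3 were called: Tnfrsf19 (1.34), Twist1 (1.29) and Prickle1 (0.72). All of these were higher. No gene of the β-catenin core or the R-spondin list was called. Between the control tissues, 3.06% of all genes were called. Of 17 ligand and secretion genes, 2 (Wnt7b, 1.31, and Wnt4) were called higher in the base, and 3 (Wnt2, -1.99, Wnt2b, -1.48, and Wls) lower. Of 13 antagonists and Kremens, Sostdc1 was called higher in the base (2.16) and Wif1 (-1.20), Dkk2 (-1.04) and Dkk3 lower. Of 12 other readouts, Wisp1 was called lower (-0.80).

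To see which profiles were most like those of Axin2 and Lef1, the log2(FPKM + 1) values of each gene over the 9 libraries were centred on their mean, and genes with a mean of at least 5 FPKM, 12933 in all, were ranked by the root mean square of their difference from the reference profile. The nearest to Axin2, whose own profile had a root mean square of 0.540, were Il3ra, a cytokine receptor subunit (0.152), Shroom4, a cytoskeletal protein (0.154), and Boc, a co-receptor of Hedgehog signaling (0.165). Boc averaged 46.3 FPKM in the control vault, 80.4 FPKM in the MCAGF8 vault and 44.5 FPKM in the base. Of the members, Nkd1 came closest to Axin2, at rank 29, followed by Nkd2 at rank 315 and Lef1 at rank 1752. Znrf3 was at rank 3115, Notum at 3811, Apcdd1 at 5890 and Tcf7 at 11959. Sp5 and Rnf43, with means below 5 FPKM, were not ranked. The measure also counts the size of a change: a flat profile would lie 0.540 from Axin2, nearer than Apcdd1 (0.610). The nearest to Lef1 were Irx1, an Iroquois transcription factor (0.212), Sdk2, an adhesion protein (0.286), and Stk32b, a kinase (0.290), and Axin2 was at rank 22. Irx1 averaged 5.60 FPKM in the control vault, 24.2 FPKM in the MCAGF8 vault and 8.56 FPKM in the base.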

How the data were processed

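RNA of 9 pools (3 per group, each from 3 tissue samples) was made into stranded mRNA libraries and sequenced as single-end reads. The authors mapped reads with gSNAP, and the deposited values are FPKM from Cufflinks, 1 table for all libraries. Not given in the sources used here: program versions, genome build, annotation and strand setting. Depth is unknown, so no counting intervals are given, and precision is described by the SD of 3 pools. FPKM summed to 793249 to 1315982 per library, with 16006 to 17281 genes at 1 FPKM or more.

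From the table, 63 rows repeating an identifier were added to the first row of that identifier (no member had one), and 9 genes with placeholder values in 17 cells were left out. On log2(FPKM + 1), 18714 genes with a mean of at least 0.5 FPKM entered a limma fit (version 3.58.1, R 4.3.3, 1 mean per group over all 9 libraries, eBayes with trend, two-sided). The study used ANOVA in R. The members and gene lists were chosen with earlier results of these data known, and no list was tested as a set. The text names all members, the called genes of each other list (values for at most the 3 with the largest differences), a few defining markers, and the 3 nearest profiles to Axin2 and Lef1. Of 220 list genes, 219 were matched (Wisp1 through its newer symbol), and Tubb3 was not. Dkk2 is in both the antagonist and the dermis list. Of the other marker lists, neuronal sums were 106 to 140 FPKM in the control vault, 78.0 to 115 in the MCAGF8 vault and 251 to 661 in the base. Meningeal sums were 805 to 968, 715 to 1353 and 458 to 960 FPKM, endothelial sums 458 to 538, 544 to 684 and 405 to 486 FPKM, lymphoid and leukocyte sums 9.81 to 11.2, 9.48 to 11.6 and 12.0 to 15.0 FPKM, and erythroid sums 12618 to 17861, 10443 to 16413 and 5059 to 11091 FPKM in the same order. A comparison of protein sequences was not run. Python 3.11.15 was used with numpy 2.4.6, pandas 2.3.3 and matplotlib 3.10.9. Alternatives covered the pseudocount, the filter, the scaling, the libraries fitted, moderation, a replicate block, repeated identifiers and the thresholds.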

Additional observations from a re-analysis of the deposited data

How the results depend on the processing

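The depth of the libraries is unknown, so low genes such as Sp5 carry a counting error that could not be estimated, and each group is 3 pools. Over 564 alternative values of the members' differences, 491 kept direction and call, 46 lost the call, 9 gained it and 18 changed sign. The main fit called 2 members against the control vault, 5 against the base and 1 between the control tissues. Most kept values were thus of members that stayed uncalled. Against the control vault, Sp5 lost its call in 10 of 18 alternatives and Apcdd1 in 10 of 19. Against the base, Nkd2 lost it in 6 of 19 and Sp5 in 7 of 18, and Axin2, Nkd1 and Apcdd1 in 0 of 19. Between the control tissues, Rnf43 lost it in 13 of 18.

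Against the control vault, 2 members and 113 genes in all were called. No member was called with no filter (66 genes in all), with the replicate block (19) or at an adjusted p under 0.05 (35). A linear model without moderation called 0 genes in all, so its count says nothing about the members. The filter of 5 FPKM called 1 (8 members tested, 71 genes in all) and the unadjusted p alone 8 (1186 in all). Without 1 library, 0 to 5 members were called (11 to 231 genes in all). Against the base, 5 members and 1571 genes in all were called. The count was 3 with both groups only (875 genes in all), with the replicate block (918), without moderation (869) or at an adjusted p under 0.05 (941). It was 3 to 6 without 1 library (559 to 4580 genes in all). Between the control tissues, 1 member and 573 genes in all were called. No member was called with no filter (475 genes in all), a filter of 5 FPKM (291), quantile normalization (626) or rescaling to a common sum (456). The same held with both groups only (108), the replicate block (234), no moderation (257) and an adjusted p under 0.05 (255). The unadjusted p called 3 (2396 of 18714 genes in all), and leaving out 1 library 0 to 1 (132 to 1322 in all). The causes were not tested, apart from the stricter thresholds themselves and the filter of 5 FPKM, which leaves out Sp5 and Rnf43. A fit of the vault groups alone called 3 members (Lef1 added, 174 genes in all). Rescaling to a common sum also called 3 (Nkd2 added, 107 genes in all) and moved the median of all genes to 0.13 from -0.01.

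Deviations of the libraries from their group means were correlated over genes. Same-numbered MCAGF8 and control vault libraries had correlations of 0.37, -0.07 and -0.43, and differently numbered ones ran from -0.47 to 0.56. For same-numbered MCAGF8 vault and base libraries they were -0.27, -0.55 and -0.29, and for control base and control vault libraries -0.41, 0.000295 and 0.24. These values cannot show whether pools share embryos, because the tissue makeup of the pools also differed.

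Signs changed only in comparisons in which the member was not called. Notum was at -0.16 under quantile normalization and -0.0304 after rescaling to a common median between the control tissues, and Rnf43 at 0.17 under quantile normalization and 0.0765 after rescaling to a common sum against the base. Without 1 library, the log2 difference of Notum ranged from -0.0838 to 0.21 against the control vault, from -0.34 to 0.24 against the base and from -0.16 to 0.42 between the control tissues. Against the base, that of Rnf43 ranged from -0.31 to 0.0667 and that of Znrf3 from -0.15 to 0.23. Between the control tissues, that of Lef1 ranged from -0.29 to 0.71, of Nkd2 from -0.25 to 0.18 and of Apcdd1 from -0.14 to 0.58.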

Other observations

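Within the pairs of related members the balance of transcripts was also summed up, after their values had been seen and with no test. The ratio of Nkd1 to Nkd2 was 1.61, 1.57 and 1.63 in control vault replicates 1 to 3, 1.29, 1.24 and 1.20 in the MCAGF8 vault and 1.10, 1.54 and 0.894 in the base. Every MCAGF8 library had a lower ratio than every control vault library, since Nkd2 differed by a larger factor than Nkd1. The ratio of Znrf3 to Rnf43 was 2.95, 2.54 and 2.37 in the control vault, 1.81, 1.16 and 1.28 in the MCAGF8 vault and 1.25, 1.41 and 1.05 in the base, where the vaults did not overlap and the MCAGF8 vault overlapped the base. Within the base, the ratio of Lef1 to Tcf7 was 0.189 and 0.240 in replicates 1 and 3 and 1.37 in replicate 2.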
